A study of Mus musculus with 2 samples.

Results

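The gene Trp53 encodes p53, the transcription factor that answers DNA damage and other stress, and it was described here with 9 further genes, the p53 inhibitors Mdm2 and Mdm4 and 7 genes that p53 is known to activate. The 10 genes (Trp53, Mdm2, Mdm4, Cdkn1a, Ccng1, Trp53inp1, Zmat3, Sesn1, Phlda3 and Aen) were a list of symbols matched to the gene identifiers of the files. All 10 were found among 43346 Ensembl genes. The samples were erythroblasts, which are red cell precursors that still carry a nucleus, taken as primary cells from male C57BL/6J mice of 5 to 6 weeks. Each of 2 libraries was made from 100 ng of RNA after removal of ribosomal RNA, with a ScriptSeq kit. The 2 libraries form 1 group of biological replicates, each with its own biosample but the same donor record, and part of their spread may therefore be technical. The labels also give a size range, without a unit, of 200 to 764 for replicate 1 and 138 to 1000 for replicate 2. Any effect of that range on levels or transcript shares cannot be told apart from other differences between the replicates. No treatment, damage or genetic change is named in the labels, and there is no second group, so nothing was compared across conditions and no p-value is given.

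As background, p53 protein is kept scarce by the product of Mdm2, a ubiquitin ligase that marks it for destruction, and by that of Mdm4, a related protein that covers its activation domain. When stress loosens this hold, p53 binds paired copies of a short half-site in the DNA and switches on genes that halt the cell cycle, start cell death, limit growth or repair damage. Mdm2 is itself such a target, which closes a feedback loop. Because p53 is controlled mainly as a protein, the amount of its RNA and its activity are different things. In red cell precursors p53 is best known from anemias with faulty ribosome production, in which free ribosomal proteins bind Mdm2.

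The DNA upstream of these genes was described by its matches to the p53 consensus. The 250 bases upstream of each RefSeq transcription start on GRCm38.p6 were searched for the p53 half-site consensus of 10 bases, which reads the same on both strands. They were also searched for 2 half-sites side by side, a full site of 20 bases, with up to 3 mismatches. A half-site without mismatch can lie inside a full site. Of 32841 mouse promoter windows, 7.13% held a half-site, 5.32% held a full site and 0.0761% held a full site with at most 1 mismatch. Of the 10 genes, 8 had a window, with 12 windows in all, and 6 of the 12 windows held a half-site and 6 held a full site. Trp53inp1 and Zmat3 had no window in the table. The members were chosen as p53, its inhibitors and known p53 targets, so these counts are a description. Trp53 and Mdm4, which each held a full site with 3 mismatches, were not listed here as targets.

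A full site with 1 mismatch was found at 2 of the 10 genes, Cdkn1a and Ccng1. That of Cdkn1a lay 51 bases upstream of its most upstream annotated start. The window is printed because this start was the one with no counts assigned, in a gene with few counts (below). The capitals mark a lone half-site and the full site, which has 1 mismatch. The second sequence is the window upstream of the start of Cdkn1a-201, on the same strand, which held neither a half-site nor a full site. The windows are chr17:29090729-29090978 and chr17:29093519-29093768, both on the plus strand of GRCm38.p6.
Cdkn1a upstream start: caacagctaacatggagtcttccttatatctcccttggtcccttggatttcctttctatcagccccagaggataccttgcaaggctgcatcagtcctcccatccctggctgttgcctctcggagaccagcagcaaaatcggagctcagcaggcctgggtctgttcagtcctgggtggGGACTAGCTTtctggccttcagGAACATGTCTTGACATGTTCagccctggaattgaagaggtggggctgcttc
Cdkn1a-201 start: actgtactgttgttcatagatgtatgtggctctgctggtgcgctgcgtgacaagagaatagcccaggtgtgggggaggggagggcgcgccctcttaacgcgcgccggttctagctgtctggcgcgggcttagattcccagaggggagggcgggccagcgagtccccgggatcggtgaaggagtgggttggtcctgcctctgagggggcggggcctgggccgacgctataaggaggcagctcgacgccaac

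The third window belongs to Ccng1, the cyclin G gene, at chr11:40755287-40755536 on the minus strand. It is shown 5′ to 3′ and holds a full site with 1 mismatch, 195 bases upstream of the start, and a second full site with 3 mismatches, 142 bases upstream. The fourth window lies at the downstream start of Sesn1, chr10:41887189-41887438 on the plus strand, and its full site has 3 mismatches. It is printed because most Sesn1 reads were assigned to the transcript that begins there. Capitals mark the full sites.
Ccng1 start: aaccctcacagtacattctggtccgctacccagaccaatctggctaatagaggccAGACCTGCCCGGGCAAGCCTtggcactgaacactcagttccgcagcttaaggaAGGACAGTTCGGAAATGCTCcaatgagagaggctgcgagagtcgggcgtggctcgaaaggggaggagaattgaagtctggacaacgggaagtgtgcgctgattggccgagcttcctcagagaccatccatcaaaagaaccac
Sesn1-201 start: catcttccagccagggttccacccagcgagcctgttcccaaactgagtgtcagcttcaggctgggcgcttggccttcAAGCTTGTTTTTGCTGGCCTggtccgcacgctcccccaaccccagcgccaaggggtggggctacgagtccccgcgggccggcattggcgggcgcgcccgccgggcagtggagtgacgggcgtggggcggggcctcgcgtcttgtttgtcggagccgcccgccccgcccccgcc

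Mdm2 is known for 2 promoters, an upstream one and a p53-responsive one inside intron 1. Intron 1 of Mdm2-201 spans chr10:117710029-117710551 (523 bases, GRCm38, minus strand). Its part chr10:117710029-117710292, 264 bases, could be read from the first exon of the transcript Mdm2-207 and is printed whole. It holds 2 full sites with 3 mismatches each, in capitals, 102 and 64 bases upstream of the start of Mdm2-209, and no half-site without mismatch. Of all promoter windows of 250 bases, 0.341% held 2 or more full sites. A match describes letters only, and binding was not measured in these libraries.
Mdm2 intron 1: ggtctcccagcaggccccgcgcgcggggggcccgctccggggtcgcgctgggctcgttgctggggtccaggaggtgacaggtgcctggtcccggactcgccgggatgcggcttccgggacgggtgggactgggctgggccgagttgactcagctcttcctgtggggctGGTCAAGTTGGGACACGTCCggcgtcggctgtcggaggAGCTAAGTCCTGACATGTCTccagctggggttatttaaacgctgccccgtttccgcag

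Replicate 1 held 37312632 expected counts and replicate 2 held 22464752, so a gene without counts could still reach a CPM (counts scaled by library total) of 0.0804 and 0.134, the level of 3 counts. Deposited TPM, a length-corrected measure, is a share over all features, and protein-coding genes held 11.3% and 6.89% of it. Levels are therefore given as coding-scaled TPM, a rescaling in which the 21461 nuclear protein-coding genes add up to 1000000 in each library, as mean ± SD with n = 2. A gene is called detected at 1 or more in both libraries, as 43.9% of protein-coding genes were. The erythroid label was checked against 9 markers such as Slc4a1 and Alas2, and all 9 were detected, with a median of 1492 ± 67.3. All 12 neutrophil markers were also detected, with a median of 519 ± 18.9. Their levels summed to 20759 and 20210, where those of the erythroid list summed to 55715 and 66883. Most of the erythroid sum was 1 globin gene, Hbb-bt, at 39662.5 and 48424.5, so the comparison of sums rests largely on that gene. Of 8 monocyte and macrophage markers 8 were detected, of 5 mast cell, basophil and eosinophil markers 5, of 5 megakaryocyte markers 3 and of 5 endothelial or stromal markers 3. Of 5 T and NK cell markers 1 was detected and of 5 B cell markers 0, with Cd3d, Pax5 and the endothelial gene Cdh5 at 0 counts in both libraries. The part of other cells in the levels below was not tested, and fewer cells of a type cannot be told apart from less RNA per cell.

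Of the 10 genes, 7 were detected, where 43.9% of all protein-coding genes were. The median of the 10 was 21.5 ± 2.76 coding-scaled TPM, against 7.23 for the 12895 protein-coding genes with a TPM above 0 in either library. With the adult globins left out of the rescaled sum the median of the 10 was 33.6. That choice raises every gene of a library by the same factor, so 33.6 is not to be set against 7.23. The genes fell into a detected set between 10.2 and 130.5 and a set of 3 below 1. Sesn1 and Trp53inp1 stood highest, Mdm4, Mdm2, Trp53, Ccng1 and Aen followed, and Cdkn1a, Zmat3 and Phlda3 stood at or near 0. Between neighbours in this order the values of the 2 libraries overlapped only for Sesn1 with Trp53inp1 and for Cdkn1a with Zmat3.

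**Figure D1:**
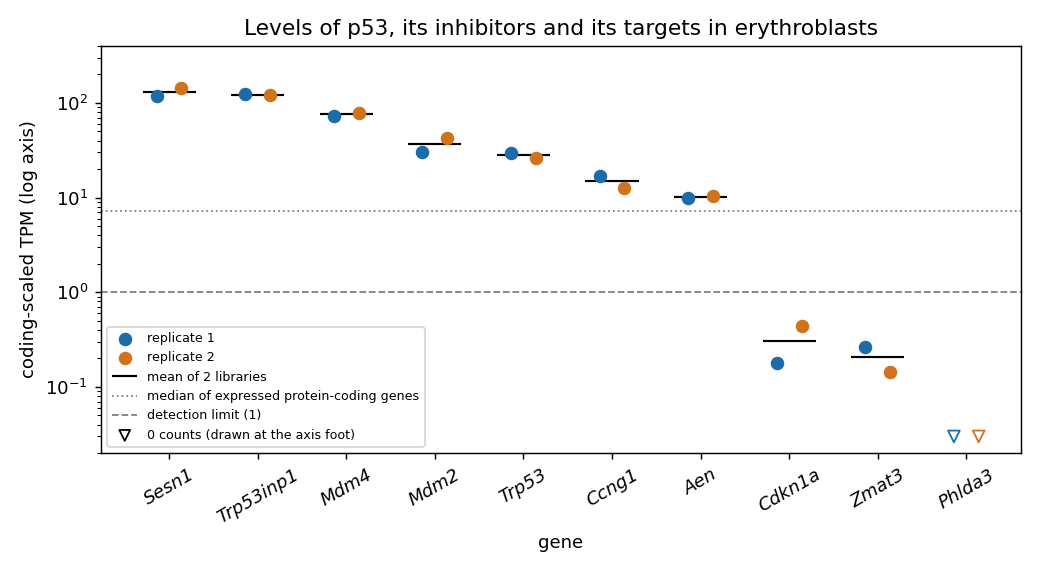
Coding-scaled TPM on a log axis for each of the 10 genes, with 1 point per library (blue, replicate 1, and orange, replicate 2) and a bar at the mean of the 2 libraries. 7 genes lie above the detection limit of 1 in both libraries and above the median of expressed protein-coding genes, 7.23; Cdkn1a and Zmat3 lie below 1 and Phlda3 had 0 counts.

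Trp53 itself (ENSMUSG00000059552, chr11:69580359-69591873, plus strand) stood at 29.9 in replicate 1 and 26.4 in replicate 2, on 580 and 365 counts. The mean was 28.1 ± 2.45, at percentile 77.6 of the expressed protein-coding genes. p53 RNA was thus present in both libraries at a close level. Its relatives Trp63 and Trp73, the other members of the p53 family, had 0 and 1 counts for Trp63 and none for Trp73.

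Both inhibitors were detected, and Mdm4 stood above Mdm2. Mdm4 (ENSMUSG00000054387, chr1:132959484-133030561, minus strand) stood at 73.6 and 78.3 on 3210 and 1583 counts, a mean of 75.9 ± 3.36. Mdm2 (ENSMUSG00000020184, chr10:117688875-117710758, minus strand) stood at 30.3 and 43.1 on 896 and 779 counts, a mean of 36.7 ± 9.03. The libraries thus differed more for Mdm2 than for Mdm4, and no Mdm4 value lay near a Mdm2 value. The ratio of the Mdm4 to the Mdm2 level was 2.43 in replicate 1 and 1.82 in replicate 2. Relative to Trp53, Mdm4 stood 2.46 and 2.97 times as high and Mdm2 1.01 and 1.63 times.

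The 2 cell cycle targets differed from each other. Ccng1 (ENSMUSG00000020326, chr11:40748552-40755311, minus strand), whose product cyclin G1 recruits a phosphatase to Mdm2, stood at 17.0 and 12.6 on 857 and 329 counts, a mean of 14.8 ± 3.08. Cdkn1a (ENSMUSG00000023067, chr17:29090976-29100727, plus strand) encodes p21, the inhibitor of cyclin-dependent kinases through which p53 halts the cell cycle. It had 2 counts in replicate 1 and 5 in replicate 2, which is 0.178 and 0.435 coding-scaled TPM. The exact 95% intervals were 0.00649 to 0.194 CPM and 0.0723 to 0.519 CPM, and they cover counting error only. Cdkn1a was thus close to the limit of detection in both libraries. Of the 10 genes, it alone shared exon bases with another annotated gene, AC167363.2 on the opposite strand (273 of its 3553 exon bases).

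The targets linked to cell death and growth spanned the whole range. Trp53inp1 (ENSMUSG00000028211, chr4:11156431-11174379, plus strand), whose product is a nuclear cofactor of p53 that also acts in autophagy, stood at 123 and 120.1 on 8808 and 4493 counts, a mean of 122 ± 2.04. It held the most counts of the 10 genes in both libraries. Aen (ENSMUSG00000030609, chr7:78895854-78911209, plus strand), an apoptosis-enhancing nuclease, stood at 9.86 and 10.4 on 259 and 168 counts, a mean of 10.2 ± 0.410. It was the lowest of the detected genes and still lay above the median expressed gene. Zmat3 (ENSMUSG00000027663, chr3:32334792-32366014, minus strand), an RNA-binding zinc finger protein, had 29 and 5 counts, or 0.267 and 0.145 coding-scaled TPM. Phlda3 (ENSMUSG00000041801, chr1:135766119-135769136, plus strand), a repressor of the growth kinase Akt, had 0 counts in both libraries. For Phlda3 a count of 0 allows up to 0.243 coding-scaled TPM in replicate 1 and 0.455 in replicate 2, taking 3 counts as the limit. The upper bounds of the authors' credibility intervals, on the same scale, were higher, at 0.581 and 1.04, and the second lies just above the detection limit. For Zmat3 these upper bounds were 1.09 and 1.49, above the limit in both libraries. For Cdkn1a they were 0.867 and 1.59, above it in replicate 2.

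Sesn1 (ENSMUSG00000038332, chr10:41809935-41908424, plus strand), a sestrin that lowers mTORC1 signalling under stress, stood at 119 and 142 on 4396 and 2779 counts. Its mean of 130.5 ± 16.9 was at percentile 93.6, and it was the highest of the 10. Replicate 2 was the higher library, and its Sesn1 value lay above every Trp53inp1 value while the value of replicate 1 lay below both. Relative to Trp53, Sesn1 stood 3.97 and 5.40 times as high and Trp53inp1 4.12 and 4.55 times.

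The 2 libraries were then set side by side by the log2 ratio of replicate 2 over replicate 1, from counts scaled with TMM factors. Exact Clopper-Pearson 95% intervals of each ratio cover counting error, and only genes with a mean of at least 100 counts were used. Of the 7 members with enough counts, 0 were at least 2-fold apart, where 10.5% of all 8204 genes were. Without the count filter Cdkn1a and Zmat3 passed 2-fold on the few counts given above, where 6894 of 16568 genes did. The ratios of the 7 members ran from -0.50 for Ccng1 to 0.68 for Mdm2, with a median of 0.21 against -0.03 for all genes. Mdm2 was higher in replicate 2 (0.68, interval 0.54 to 0.82) and Ccng1 higher in replicate 1 (-0.50, interval -0.69 to -0.32). Both lay outside the middle 50% of protein-coding genes, which ran from -0.363 to 0.249, and Aen, at 0.254, lay just above its upper edge. The interval of Trp53 was 0.02 to 0.40, that of Sesn1 0.15 to 0.29 and that of Aen -0.04 to 0.54, which includes 0. By these counts Mdm4, at -0.14, and Trp53inp1, at -0.09, were slightly higher in replicate 1. From coding-scaled TPM the log2 ratio was 0.09 for Mdm4 and -0.18 for Trp53, so the direction of both depended on the measure. Mdm2 and Ccng1, both p53 targets, thus stood on opposite sides, and each side is a single library. Markers of other cells also differed between the libraries: 9 of 12 neutrophil markers were higher in replicate 1, with a median log2 ratio of -0.30. Of 7 monocyte and macrophage markers with enough counts, 6 were higher in replicate 1, with a median of -0.16. The 8 genes of that list summed to 612 and 363 coding-scaled TPM. Ly6c2 alone stood at 402 and 173, so the difference of these sums rests largely on that gene. The erythroid markers had a median of -0.05, with Gata1, an erythroid transcription factor, at -0.84. The part of these differences in the members' ratios was not tested.

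**Figure D2:**
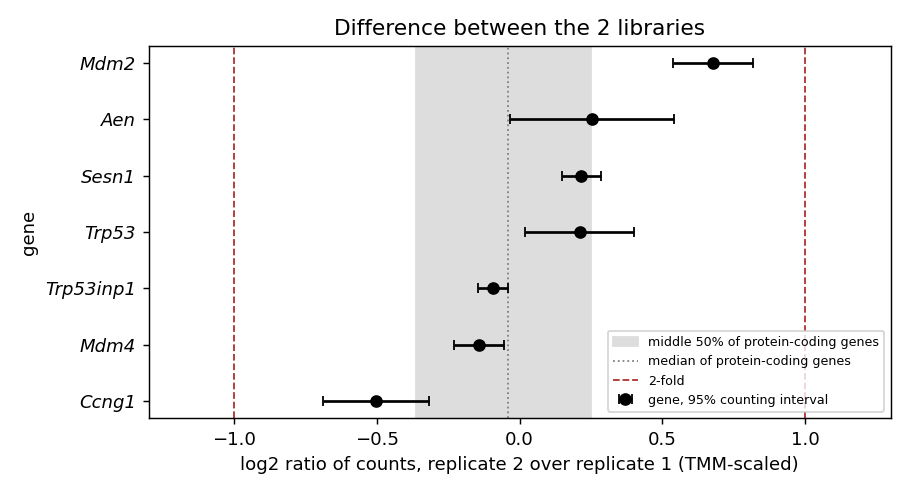
Log2 ratio of TMM-scaled counts, replicate 2 over replicate 1, for the 7 genes with a mean of at least 100 counts; bars are exact 95% counting intervals, the grey band is the middle 50% of protein-coding genes and dashed lines mark 2-fold. No gene passes 2-fold, Mdm2 (0.68) lies right of the band, Ccng1 (-0.50) left of it and Aen (0.254) just past its upper edge (0.249).

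The transcripts that made up these levels were then described. The files split each gene's reads among annotated transcripts, and a short transcript gains weight in TPM because TPM is per length, so the share of expected counts is given too. All 52 transcripts of the 10 genes matched GENCODE release M21, 44 with the same length. Of the 7 detected genes 3 were led by a protein-coding transcript, by mean share of TPM, where 82.8% of 7039 detected protein-coding genes with over 1 transcript were. In the detected genes protein-coding transcripts held a median of 45.6% of TPM and 50.2% of counts, against 83.4% and 93.1% in those 7039 genes. Within a single library 5 of the 7 were led by a protein-coding transcript, not the same 5 in both, and by mean share of counts 4 were. The share over all genes was taken by mean share of TPM only, so these other numbers have no background to be judged against. Ccng1 and Sesn1 had all of their TPM in protein-coding transcripts, and the other 5 did not. With only protein-coding transcripts summed, a choice made after the values were seen, Mdm2 stood at 10.1, Mdm4 at 29.1, Trp53 at 15.3, Trp53inp1 at 66.7, Aen at 4.30, Ccng1 at 17.7 and Sesn1 at 157. All 7 were still detected, and Ccng1 then stood above Trp53 and Mdm2.

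**Figure D3:**
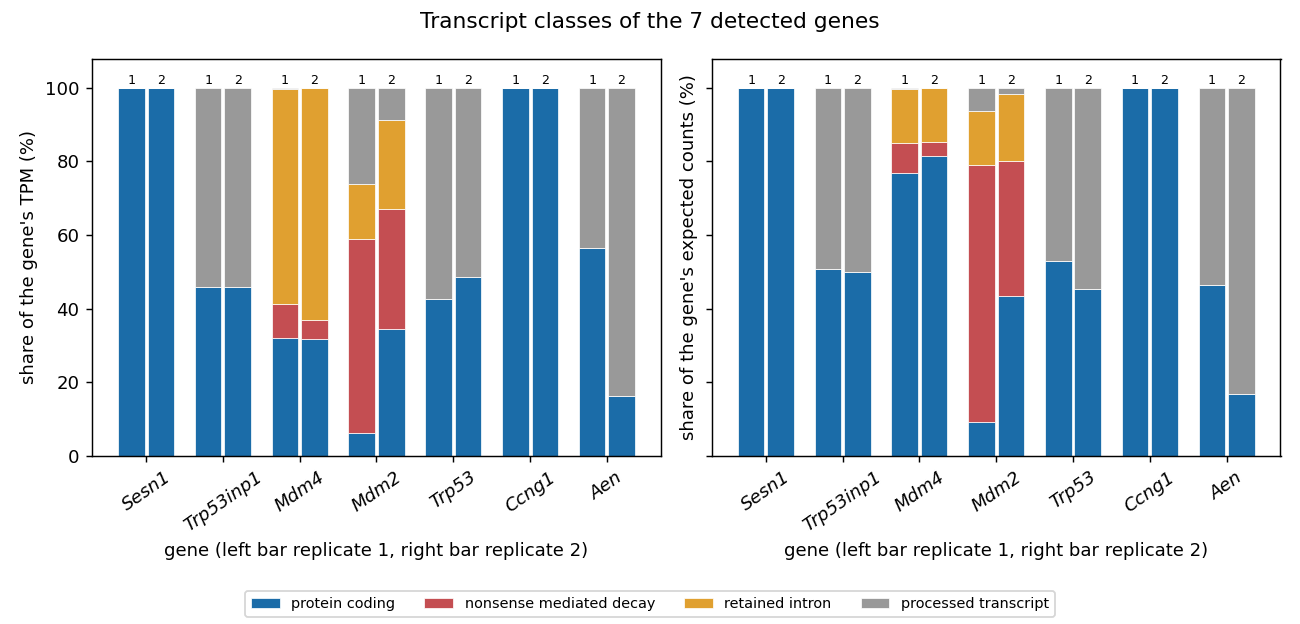
Share of each detected gene's TPM (left) and expected counts (right) held by transcripts of each annotated class, with replicate 1 as the left bar and replicate 2 as the right bar of a pair. Sesn1 and Ccng1 are at 100% protein-coding, and retained-intron transcripts of Mdm4 take 58.5% and 63.0% of TPM but 14.9% and 14.7% of counts.

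For Trp53 the protein-coding share was close in both libraries, at 42.6% and 48.5% of TPM, but the leading coding transcript was not the same one. Trp53-203 held 39.8% of TPM in replicate 1 and 0% in replicate 2, and Trp53-202 held 0.740% and 48.5%. Their posterior standard deviations in replicate 1, 82.6 counts for Trp53-203 and 6.38 for Trp53-202, stood beside 286 and 5.51 counts. By posterior mean TPM the split was less sharp: Trp53-203 held 21.8% and 5.48%, Trp53-202 1.06% and 25.7%, and Trp53-201, also a coding transcript, 18.96% and 6.72%. The remainder was in Trp53-205, a processed transcript of 3275 bases (40.4% and 51.5% of counts), and Trp53-204, a processed transcript of 403 bases. Trp53-204 held 40.7% and 22.1% of TPM on only 39.4 and 11.4 counts.

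Mdm2 reads were split differently in the 2 libraries. Mdm2-209, annotated as a target of nonsense-mediated decay, the pathway that destroys RNAs with early stop codons, begins just below the intronic sites and lacks exon 8 of Mdm2-201 (97 bases, chr10:117695953-117696049). It held 625 of 896 counts in replicate 1 and 286 of 779 in replicate 2. Mdm2-201, the full-length coding transcript with 1467 coding bases, held 82.5 and 338 counts, with posterior standard deviations of 31.4 and 41.2. Transcripts starting 466 to 736 bases downstream of the most upstream start, in or just below the intron sequence printed above, together held 75.5% of Mdm2 counts in replicate 1 and 37.0% in replicate 2. Those starting within 150 bases of the most upstream start held 22.0% and 59.0%. The order of the 2 start groups was thus opposite in the libraries, and which start is the main one was not settled by these data. The shares come from reads assigned to whole transcripts, not from reads at the starts. Both annotated coding transcripts of Mdm2 begin at the most upstream start. Coding RNA from the downstream start would therefore have no annotated transcript of its own, which also limits the coding share and coding-only level of Mdm2. Mdm2-205, a retained-intron transcript, held 12.1% and 14.3% of counts, and Mdm2-206, a processed transcript, 5.73% and 0%. By TPM, Mdm2-206 held 22.6% and 0%, Mdm2-204 6.80% and 12.3%, and Mdm2-203 3.42% and 6.93%.

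**Figure D4:**
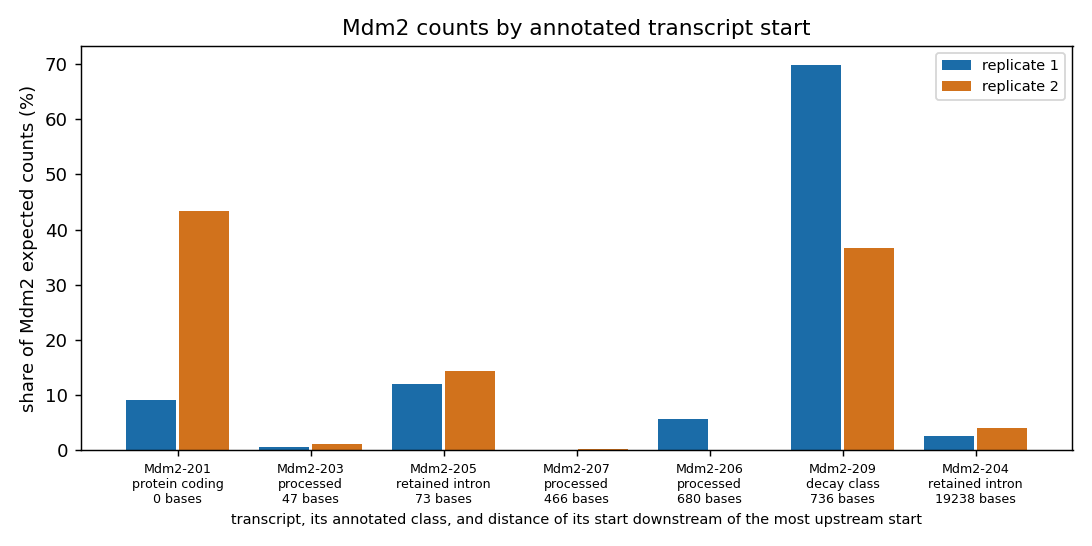
Share of Mdm2 expected counts assigned to each transcript with counts, ordered by the distance of its start from the most upstream annotated start, with replicate 1 in blue and replicate 2 in orange. Mdm2-209, starting 736 bases downstream, is the tallest bar of replicate 1 (69.7%) and Mdm2-201, at the upstream start, that of replicate 2 (43.4%).

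For Mdm4 the transcript that came first by mean share was not the same by TPM and by counts. Mdm4-210, the coding transcript of 7105 bases, held 2471 and 1289 counts, 77.0% and 81.4% of the gene. By TPM it held 31.9% and 30.5%, and Mdm4-209, a retained-intron transcript of 612 bases, held 26.7% and 53.6% on 126 and 150 counts. The other Mdm4 transcripts averaging at least 5% of TPM were of the retained-intron class: Mdm4-205 (6.09% and 5.49%), Mdm4-207 (11.8% and 2.86%) and Mdm4-211 (13.9% and 1.08%). Counts thus put the coding form of Mdm4 first in both libraries.

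The 2 members with the highest levels varied less between the libraries in their transcripts. Trp53inp1-201, the coding form, held 45.75% and 45.76% of TPM, and the processed transcript Trp53inp1-202 held 40.4% and 42.5%. Their lengths are 5404 and 5432 bases, and the posterior standard deviations of Trp53inp1-201 were 248 and 145 counts on 4460 and 2238. Trp53inp1-204, also a processed transcript, held 13.8% and 11.7%. In Sesn1 the downstream start printed above dominated: Sesn1-201 held 94.9% and 87.8% of TPM, and Sesn1-202, which starts 77504 bases upstream, held 5.08% and 12.2%.

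Ccng1-201 held 100% of its gene in both libraries. Aen was split in ways that differed between the libraries: coding Aen-201 held 40.5% and 0% of TPM, coding Aen-202 0% and 14.6%, and coding Aen-205 15.9% and 0%. The processed transcripts Aen-204 and Aen-206 held 20.7% and 37.9%, and 22.9% and 46.0%. Aen-206 rests on 7 and 9 counts, so the mean share that puts it first in the gene rests on few reads. Aen-204 held 132 and 131 counts. For Cdkn1a the 2 counts of replicate 1 were assigned to Cdkn1a-203 and the 5 of replicate 2 to Cdkn1a-201. The transcript from the upstream start with the full site, Cdkn1a-202, was assigned 0 in both. By posterior mean TPM Cdkn1a-202 held 26.1% and 29.1%, so on so few counts the use of this start cannot be judged. All Zmat3 counts were assigned to Zmat3-203, but by posterior mean TPM Zmat3-203 held only 27.2% and 12.0%, so that assignment is uncertain.

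The remaining genes of the pathway place the 10 in context, and all of them are descriptions of lists drawn from known function. Of 17 activators and cofactors of p53, 16 were detected, where 43.9% of all protein-coding genes were. Their median was 53.1 ± 8.05. Usp7, the deubiquitinase that acts on both p53 and Mdm2, stood highest at 1096 and 1215, followed by the acetyltransferase Ep300 at 176 and 178. The checkpoint kinases Chek2 (62.1 and 82.5) and Atm (4.44 and 5.37) were both detected. Cdkn2a, which encodes the Mdm2 antagonist Arf, had 0 counts in both libraries. Rpl11, at 135 and 173, and Rpl5, at 52.2 and 172, are the ribosomal proteins that bind Mdm2. Both have many near-identical copies in the genome, so their levels are uncertain. All 8 other inhibitors were detected, with a median of 50.5 ± 0.592. The highest were the ubiquitin ligases Cop1 (113 and 121) and Huwe1 (58.3 and 143), and the lowest was the ligase Rchy1 (13.2 and 25.5). Ppm1d, the phosphatase Wip1 that is itself a p53 target, stood at 54.6 and 68.9.

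Of 32 further p53 targets, 21 were detected, where 43.9% of all protein-coding genes were. Their median was 2.56 ± 0.169, below the medians of the activators and of the inhibitors. Of 8 arrest targets 3 were detected, and 2 of them were high: Gadd45a, a stress sensor, at 724 and 676, and Btg2, an antiproliferative gene, at 433 and 372. Both stood above all of the 10 genes, while Rprm had 0 counts in both libraries. Of 12 death targets 9 were detected, with a median of 7.03 ± 1.14. Siva1 stood at 33.7 and 67.7, Apaf1, the core of the apoptosome, at 18.3 and 22.9, and Bax, which permeabilizes mitochondria, at 5.24 and 10.7. Bbc3, encoding Puma, stood at 1.69 and 7.83 on 20 and 56 counts, and Tnfrsf10b had 0 counts. Of 12 repair and metabolism targets 9 were detected, with a median of 2.29 ± 0.153. The DNA damage sensor Xpc stood at 15.5 and 9.57 and Sesn2, a relative of Sesn1, at 6.13 and 6.96. Gdf15 was the lowest, with 12 and 0 counts.

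**Figure D5:**
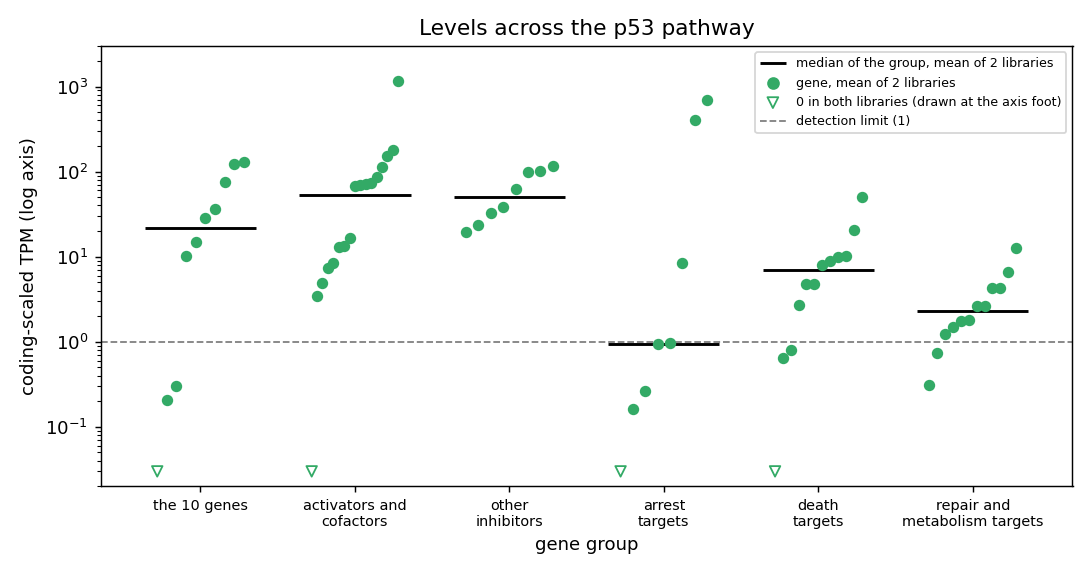
Mean coding-scaled TPM of the 2 libraries, on a log axis, for each gene of 6 groups: the 10 genes, the activators and cofactors, the other inhibitors and 3 groups of further targets; bars are group medians and open triangles are genes at 0. The medians of activators (53.1) and inhibitors (50.5) lie above those of the arrest (0.953), death (7.03) and repair and metabolism targets (2.29), and Gadd45a and Btg2 are the 2 high points among the arrest targets.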

How the data were processed

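For each library the authors deposited gene and transcript tables. Reads were assigned on mm10, per the labels, with GENCODE release M4, per the deposited text records. No aligner or quantification program is given in the sources used here. The authors' values are, per the file headers, expected counts (estimated counts that need not be whole) with posterior means and standard deviations, deposited TPM, deposited FPKM and each transcript's percent of its gene's TPM. Features other than Ensembl genes held 8 and 28 counts and were left out.

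Symbols, classes and coordinates came from GENCODE release M21 on GRCm38, which matched 42462 (98.0%) of 43346 Ensembl genes. Promoter windows came from RefSeq (GRCm38.p6). TPM was rescaled over 21461 protein-coding genes. Expected counts were rounded and scaled with TMM factors (edgeR 4.0.16, R 4.3.3), and intervals were exact Clopper-Pearson at 95%. Each side of the ratio is 1 library, so no gene was tested. DESeq2 1.42.0 size factors were an alternative. The ratio was tested on simulated counts with counting error only, so that test does not cover the spread between real replicates. Scripts ran in Python 3.11.15, with scipy 1.17.1 for intervals, pandas 2.3.3 and numpy 2.4.6 for tables, and matplotlib 3.10.9 for plots.

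The members and lists were chosen with earlier results of these data known. A further erythroid marker is not reported here. Named were all 10 members, the 2 highest and the lowest gene of each list, other list genes detected in both libraries, and members' transcripts averaging at least 5% of TPM. Cdkn1a-202, Mdm2-207, Trp53-201, marker genes, Sesn3, Zmat1, Cdkn1c and Phlda1 were named outside this rule, after their values were seen. Alternatives covered the scaling of levels and ratios, count filters, transcript share units and single libraries.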

Additional observations from a re-analysis of the deposited data

How the results depend on the processing

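The number of detected genes stayed at 7 under posterior mean TPM, FPKM, removal of the adult globins, either library alone, a limit of 10 expected counts, and protein-coding transcripts only. With a limit of 1 on deposited TPM it was 5, since Ccng1 (0.870) and Aen (0.720) fell below it in replicate 2. The median level, 21.5, was 33.6 without the adult globins in the sum and 13.1 from protein-coding transcripts only, an alternative chosen after the values were seen; with single libraries it ranged from 19.5 to 23.4. The number at least 2-fold apart was 0 under each scaling tried. With no count filter it was 2 of 9 members, where 6894 of 16568 genes were at least 2-fold apart. The additions were Cdkn1a (2 and 5 counts) and Zmat3 (29 and 5). The median ratio of the members was 0.06 to 0.22 over 5 alternatives, and 0.24 when centred on all genes. Of the ratios of single members under those alternatives, 27 stayed inside their counting interval and 8 moved out of it. The 8 came with library totals only and with coding-scaled TPM. Under coding-scaled TPM the ratios of Trp53 (-0.18) and Mdm4 (0.09) changed sign. With library totals only, the median of all genes moved to -0.18 and the share of 2-fold differences that were higher in replicate 2 from 44.8% to 30.4%. The members led by a protein-coding transcript, 5 of 9 with reads by mean TPM share, numbered 6 by counts and 7 in either library alone. No share over all genes was taken for the count and single-library settings. No paired analysis was possible because there is only 1 group. Depth limits the values of Cdkn1a, Zmat3 and Phlda3, which rest on 29 or fewer counts. By posterior mean TPM their levels were 0.653, 0.553 and 0.348 in place of 0.306, 0.206 and 0.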

Other observations

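Close relatives of the 10 genes stood higher than the gene itself in some families. Cdkn1b, which encodes p27, the cyclin-dependent kinase inhibitor of the same family as p21, stood at 407 and 328 coding-scaled TPM on 21328 and 9447 counts, where Cdkn1a had 2 and 5 counts and Cdkn1c, encoding p57, had 3 and 2. Ccng2, encoding cyclin G2, stood at 50.4 and 51.3, above Ccng1 at 17.0 and 12.6. Zmat2 stood at 42.7 and 49.7, while Zmat3 had 29 and 5 counts and Zmat1 35 and 10. Isg20, an exonuclease related to Aen, stood at 620 and 580, while a second relative, Isg20l2, stood at 5.95 and 12.2, beside 9.86 and 10.4 for Aen.

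The relatives of Sesn1 and Trp53inp1 stood lower. Sesn3 stood at 0.711 and 1.74 and Sesn2 at 6.13 and 6.96, below Sesn1 at 119 and 142. Trp53inp2, an autophagy regulator, stood at 5.15 and 3.77, below Trp53inp1 at 123 and 120.1. None of the Phlda genes reached the detection limit in both libraries: Phlda1 had 2 and 13 counts and Phlda2, like Phlda3, had 0. Of these 11 relatives, 6 were detected, where 43.9% of all protein-coding genes were, and the values are given without a test.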
